A study of Homo sapiens with 4 samples.

Results

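The 40 genes described here encode nucleolar proteins that build ribosomes, and they are a list of gene names with no threshold on a measured value. They make up 40 of the 33538 genes listed in each of 4 libraries, and all 40 were found. The set holds 3 proteins of box C/D small nucleolar ribonucleoproteins (snoRNPs), 4 of box H/ACA snoRNPs, 3 nucleolar phosphoproteins, 11 factors of small subunit assembly, 15 tied to large subunit assembly, a subunit of RNA polymerase I with the helicase DDX21, and the ATPases RUVBL1 and RUVBL2. Their levels were set beside that of MYC, a transcription factor known for raising this program.

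Ribosome biogenesis starts in the nucleolus, where RNA polymerase I transcribes a long precursor rRNA. SnoRNPs guide the methylation and pseudouridylation of that precursor, and assembly factors fold it, cut it and load it with ribosomal proteins until the small and the large subunit leave for the cytoplasm. In the colon, loss of APC frees β-catenin, MYC is a textbook target of that pathway, and larger nucleoli are a known trait of dividing and of tumor cells.

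The cells were HCEC 1CT, an immortal line from human colonic epithelium, and all groups carry the TERT and CDK4 transgenes that immortalised it. Control cells had received a scrambled shRNA (shScr) and the others an shRNA against APC (shAPC), all were kept in puromycin, and each was harvested at day 3 and at day 7 after transduction. Each of the 4 combinations is 1 droplet library of 3′ tags, so no test between groups was possible and no p-value is given. Intervals are 95% intervals of counting error only, and the variation between cultures is unknown.

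The kept cells numbered 788 to 2600 per library and gave 28451455 to 39797418 UMIs, which are counted molecules. Median depth ran from 1330 UMIs per cell in shScr day 7 to 49686 in shAPC day 3, and 10 to 33 kept barcodes per library also occurred in another library. APC, the gene targeted by the shRNA, had 16.1 CPM (UMIs scaled to a common library total of 1e6) in shScr and 5.52 CPM in shAPC at day 3, and 19.1 CPM and 6.61 CPM at day 7. Epithelial marker genes were scarce for a line with this label. Only KRT8 of 12 reached a mean of 10 CPM, EPCAM and CDH1 had at most 2 UMIs per library, and KRT20, CDX2 and MUC2 were at 0 in all 4. Of 12 mesenchymal markers 11 passed that level.

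The sequences around the start that RefSeq gives each gene were not themselves a criterion in choosing the genes. Since MYC is known for raising this program, a sequence that MYC can bind is still not independent of the list. CACGTG, the E-box hexamer that MYC with its partner MAX can bind, occurred in the promoter window of 13 of the 35 members (37.1%) with an entry in the RefSeq promoter table. The window covers 300 bases around the start, and because the hexamer is its own reverse complement a search of either strand gives the same matches. Over all 27305 promoters of the table the share was 7.43%, and over the 5661 promoters of genes at a mean of at least 10 CPM it was 11.0%. Other ribosome biogenesis genes at that level held it in 28.1% of 96 promoters, and cytosolic ribosomal protein genes in 4.76% of 63. The GC box core GGGCGG, searched on both strands, was by contrast in 77.1% of member promoters and in 72.8% of those of genes at that level. A match is only a run of letters, and binding was not measured. No entry was found for NOP58, NOLC1, RRP12, BOP1 and RRS1. The following 30-base stretches are from the GRCh38.p14 build, read 5′ to 3′ on the strand of the gene, with the hexamer in capitals. The first 4 were picked by shAPC/shScr ratios relative to all genes, at least 0.3 (log2) above at day 3 and below at day 7. NOP10 and UTP4 were added, with mean levels of 363 and 11.6 CPM.
RRP9: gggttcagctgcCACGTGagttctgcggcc
GNL2: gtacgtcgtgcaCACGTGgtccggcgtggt
NOC3L: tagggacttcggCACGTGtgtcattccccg
EBNA1BP2: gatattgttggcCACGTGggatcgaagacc
NOP10: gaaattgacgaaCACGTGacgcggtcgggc
UTP4: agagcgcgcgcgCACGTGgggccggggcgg

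The RRP9 stretch lies at chr3:51941892-51941921 on the minus strand, and its hexamer begins 5 bases before the RefSeq start, from which all distances here are counted. Those of GNL2 (chr1:37595917-37595946, minus strand) and NOC3L (chr10:94362903-94362932, minus strand) begin 3 and 19 bases after the start. The EBNA1BP2 hexamer (chr1:43172790-43172819, minus strand) is farther out, 237 bases before the RefSeq start, and it lies inside the gene as GENCODE annotates it, whose longest span begins farther upstream. NOP10 (chr15:34343130-34343159, minus strand) has it 11 bases before the start and once more 170 bases before, and UTP4 (chr16:69132621-69132650, plus strand) has it 16 bases before. The UTP4 hexamer and the nearer one of NOP10 also lie inside the gene as GENCODE annotates it.

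The 40 members together took a small and similar share of each library. They gave 0.331% of all UMIs at day 3 in shScr against 0.388% in shAPC, and 0.336% against 0.326% at day 7. Shares and CPM over summed cells cannot tell fewer cells with a transcript from less of it per cell. A 3′ tag is counted once per molecule whatever the transcript's length, so levels can be compared between genes in CPM, within the limits of how well each 3′ end is captured.

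Levels differed widely among members. NPM1, an abundant histone chaperone that shuttles between nucleolus and cytoplasm, was highest at 1175, 1167, 1154 and 1310 CPM. Every set of 4 values here is ordered as shScr then shAPC of day 3, followed by shScr then shAPC of day 7. It alone made up 35.5%, 30.1%, 34.3% and 40.2% of all member UMIs, and since NPM1 has many processed pseudogenes its reads are uncertain. NHP2 followed at 364, 369, 425 and 359 CPM and NOP10 at 328, 435, 370 and 321 CPM, both small proteins of the H/ACA particle. NCL (nucleolin) had 197, 243, 186 and 178 CPM. The helicase DDX21, which links polymerase I transcription to rRNA processing, had 197, 220, 136 and 116 CPM, lower in both day 7 libraries than in either day 3 library. At the other end, NOP2, an rRNA cytosine methyltransferase of the large subunit, had 4.07, 5.09, 2.05 and 1.72 CPM, and POLR1B, the second largest subunit of RNA polymerase I, had 4.22, 6.98, 3.71 and 4.04 CPM. These and the small subunit factors UTP15 and UTP20 were the 4 members under the mean of 10 CPM that 7008 genes in all reached. The mean was taken over all 4 libraries so that no single group decided which genes passed, and all 40 members were kept in what follows.

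**Figure D1:**
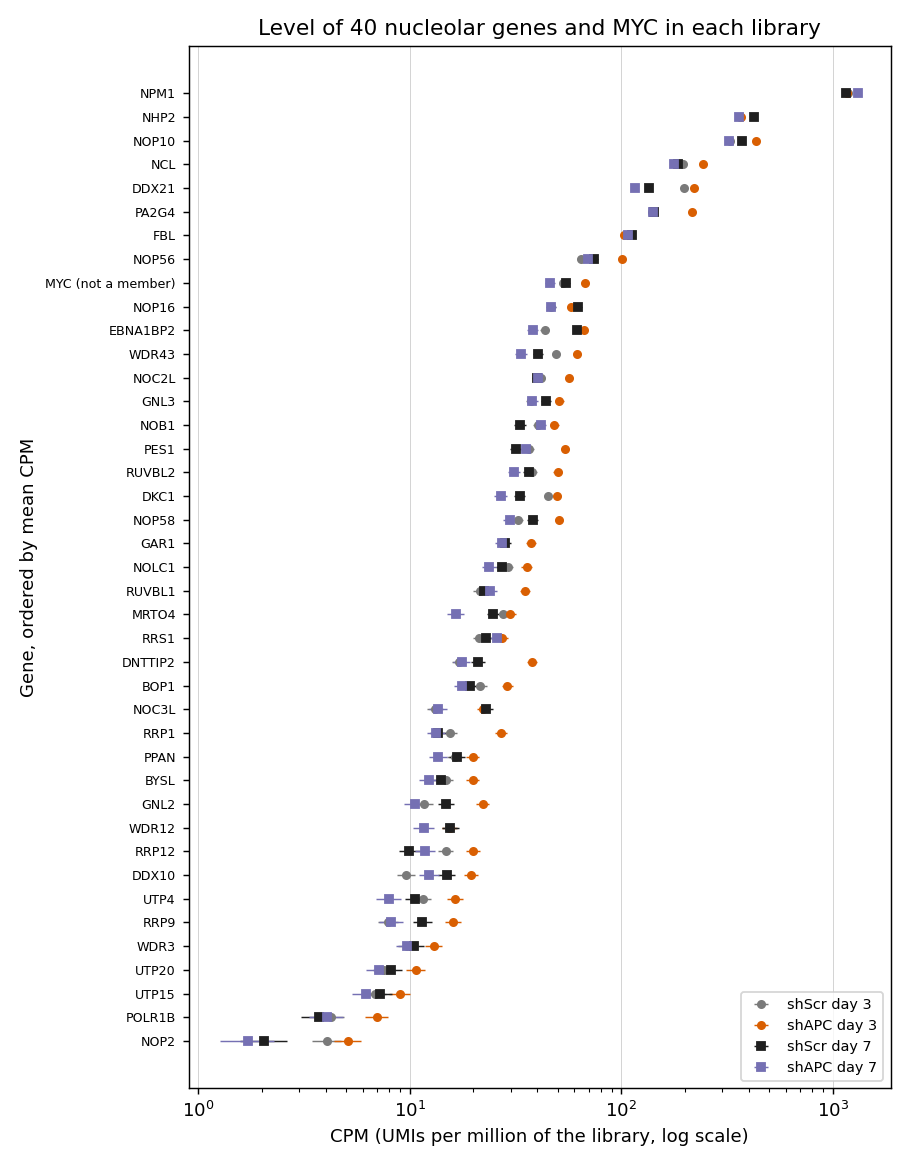
Level of each of the 40 members and of MYC (vertical axis, ordered by mean) in CPM on a log scale (horizontal axis), 1 point per library with its 95% counting interval. NPM1 lies above 1000 CPM in all 4 libraries and NOP2 under 6 CPM, and the shAPC day 3 point is the highest of the 4 for 34 of the 40 members.

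The shAPC day 3 library held the highest CPM of 34 of the 40 members (85.0%), against 62.7% of the 7008 genes. Ribosomal protein UMIs were 30.1% of this library against 35.1% to 37.5% of the other 3. With TMM factors in place of total UMIs, shAPC day 3 was the highest for 19 members (47.5%), against 23.3% of all genes, and shAPC day 7 was the lowest for 29 (72.5%), against 32.1%. Ratios are therefore given below on the log2 scale of CPM + 1, minus the median of the 7008 genes. That median was 0.28 at day 3 and -0.06 at day 7, and the difference is called the relative log2 ratio.

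At day 3, most members were higher in shAPC than in shScr by a small amount beyond the shift of all genes. The median relative log2 ratio of the 40 was 0.13, with 30 members above the all-gene median and 10 below. The counting interval lay wholly above the all-gene median for 21 members and wholly below for 7, while 35.6% of all genes had an interval above and 35.5% below. Only 3 members, DNTTIP2, DDX10 and RRP9, were higher by at least 1.5-fold, against 5.17% of all genes, and none was lower by as much, against 4.79%. No member reached 2-fold in either direction, which 1.56% of all genes did upward and 0.799% downward. The members' plain median, before the all-gene median is taken off, was 0.40 with total UMIs and 0.04 with TMM factors, where 25 of 40 stayed above 0, so the direction of a single small ratio at day 3 depends on the scale.

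The 3 members past 1.5-fold act on the small subunit precursor, but 3 of 40, against 5.17% of all genes, are too few to read a role from. DNTTIP2 (chromosome 1, 93866284 to 93879918, minus strand, protein coding, GRCh38), a factor of early precursor cleavage, had 17.1 CPM (15.8 to 18.4), 38.0 CPM (36.0 to 40.1), 21.1 CPM (19.5 to 22.7) and 17.6 CPM (16.1 to 19.2). The shAPC day 3 library stood apart from the other 3, and the relative log2 ratio was 0.83 at day 3 (0.74 to 1.01) and -0.18 at day 7 (-0.37 to -0.03). DDX10 (chromosome 11, 108665058 to 108940999, plus strand), an RNA helicase, had 9.62, 19.5, 15.0 and 12.3 CPM and a day 3 ratio of 0.67 (0.56 to 0.92). RRP9 (chromosome 3, 51933429 to 51941904, minus strand), a protein of the U3 snoRNP, had 7.89, 16.0, 11.5 and 8.19 CPM and a ratio of 0.66 (0.54 to 0.95). The GTPase GNL2, which acts on large subunit precursors, fell just short at 0.58 (0.47 to 0.81), from 11.7 and 22.1 CPM at day 3 and 14.9 and 10.5 CPM at day 7. With TMM factors GNL2 was at 0.59, and 4 members passed 1.5-fold. These 4 genes were picked for their day 3 ratios. In plain CPM the shAPC day 3 library was the highest for each, as it was for 62.7% of all genes. Its interval did not overlap that of any other library, and how many of all genes share this was not counted. Such intervals cover counting error only. For the day 3 ratio they lay wholly above the all-gene median for 35.6% of all genes and wholly below for 35.5%. RRP1, which takes part in large subunit rRNA processing, had 15.4, 27.0, 13.7 and 13.3 CPM and a ratio of 0.49 (0.38 to 0.68). DNTTIP2, PA2G4, RUVBL1 and RUVBL2 were candidate regulators in the study, from slow against fast growing cells of these same libraries. None of the 4 became its final targets, CCDC85B and PTTG1. Since the same libraries were used, these 4 members are no independent evidence of direction. Without these 4 members the day 3 median was 0.12.

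An interferon and stress list moved with the same libraries. At day 3 all 12 of its genes at the level minimum were above the all-gene median in shAPC, with a list median of 1.94, and at day 7 the median was -0.73 with 1 of 12 above. The summed CPM of its 13 genes was 965, 4614, 1416 and 743. Cells with no UMI of ATF3, a stress gene of that list, were 1081 of 1116 in shScr day 3 and 658 of 788 in shAPC day 3. Depth was not equalised here, and a shallow cell more easily shows no UMI. In these cells the members' day 3 median was 0.12, while no member reached 1.5-fold. DNTTIP2 then had a relative ratio of 0.54, DDX10 of 0.34 and RRP9 of 0.28. What the rest of that response contributes to the day 3 ratios was not tested.

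Of the 5 lowest members at day 3, FBL, NPM1 and NHP2 were abundant. FBL, the methyltransferase of the box C/D particle, had 106, 103, 112 and 108 CPM and a relative log2 ratio of -0.33 (-0.39 to -0.26). NPM1 was at -0.29 (-0.31 to -0.27) and NHP2 at -0.26 (-0.29 to -0.22). The plain CPM of these 3 hardly differed between the day 3 libraries, while the median gene was 0.28 higher in shAPC on the log2 scale. WDR12, a subunit of the PES1-BOP1-WDR12 complex of the large subunit, had 15.4, 15.5, 15.6 and 11.6 CPM and a ratio of -0.27, and MRTO4, a stalk assembly factor, was at -0.17 with 27.6, 29.8, 24.8 and 16.5 CPM. All genes showed a like dependence on level, with a median relative ratio of 0.06 at 10 to 30 CPM, -0.02 at 30 to 100, -0.14 at 100 to 300 and -0.33 above 300 CPM. Members of the same level classes had medians of 0.13 (17 genes), 0.16 (12), -0.05 (4) and -0.26 (3).

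At day 7 most members lay on the other side. The median relative log2 ratio was -0.13, with 12 members above the all-gene median and 28 below. Intervals lay wholly below for 19 members and wholly above for 6, against 33.5% and 31.8% of all genes. NOC3L and EBNA1BP2 were lower by at least 1.5-fold (5.15% of all genes), and no member was higher by as much (3.7% of all genes). None reached 2-fold, against 0.842% of all genes higher and 1.03% lower. At this day the share of members past 1.5-fold was thus near that of all genes.

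Both of the members past 1.5-fold at day 7 serve the large subunit, but 2 of 40, against 5.15% of all genes, are too few to read a role from. NOC3L (chromosome 10, 94333226 to 94362959, minus strand), which escorts large subunit precursors from the nucleolus, had 13.2 CPM (12.1 to 14.4), 22.3 CPM (20.8 to 23.9), 22.9 CPM (21.2 to 24.6) and 13.6 CPM (12.3 to 15.1). Its shAPC day 3 and shScr day 7 libraries were alike within counting error and its other 2 libraries likewise, so the shAPC/shScr ratio was 0.43 at day 3 (0.32 to 0.64) and -0.64 at day 7 (-0.87 to -0.50). EBNA1BP2 (chromosome 1, 43164175 to 43270936, minus strand), another large subunit factor, had 43.5, 66.4, 61.8 and 38.1 CPM and ratios of 0.32 (0.24 to 0.42) and -0.62 (-0.74 to -0.52). Next lowest were MRTO4 at -0.50, GNL2 at -0.39 and RRP9 at -0.38. The E-box stretches of RRP9, GNL2, NOC3L and EBNA1BP2 printed above were chosen by such ratios, and whether the hexamer goes with them was not tested. Among the members past 1.5-fold at day 3, RRP9 held the hexamer, while the promoter entries of DNTTIP2 and DDX10 did not.

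A few members were higher in shAPC at day 7. NOB1, the nuclease that makes the last cut of the small subunit rRNA, had 40.2, 48.3, 33.2 and 41.7 CPM and relative ratios of -0.02 at day 3 and 0.38 (0.27 to 0.51) at day 7. RRP12, which acts in subunit export, had 14.8, 19.9, 9.96 and 11.8 CPM and a day 7 ratio of 0.29, and NPM1 had 0.25 (0.23 to 0.27). RRS1, a large subunit assembly factor, had 21.3, 27.2, 23.1 and 25.9 CPM and a day 7 ratio of 0.23. PES1, a partner of WDR12, had 36.8, 54.3, 31.6 and 35.4 CPM and was above the all-gene median at both days, at 0.27 and 0.22. The PES1 and RRS1 day 7 ratios turned negative, to -0.42 and -0.35, when CPM were averaged over cells instead of taken from summed UMIs.

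**Figure D2:**
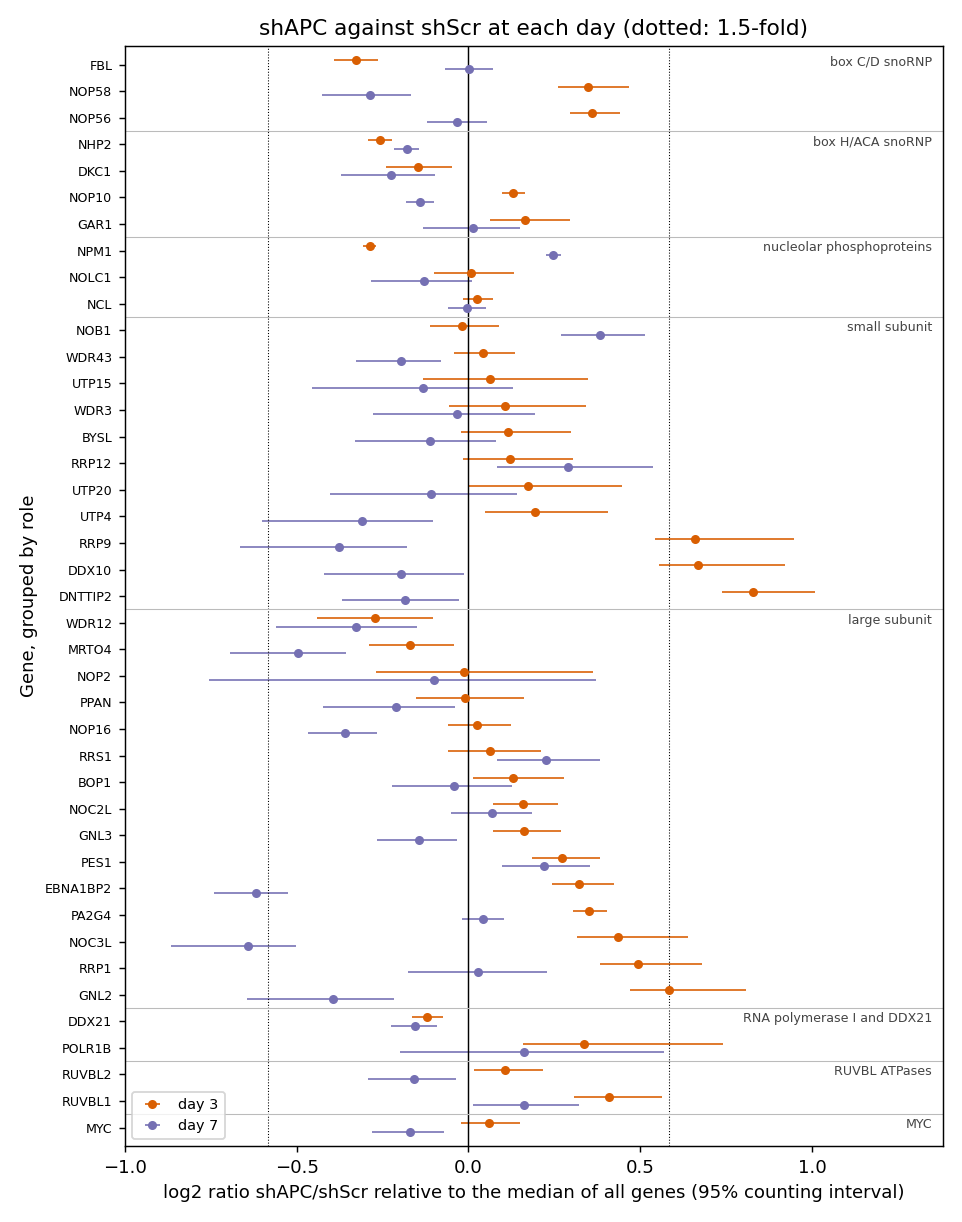
Relative log2 ratio of shAPC over shScr (horizontal axis, 0 is the median of all genes) for each member, grouped by role (vertical axis), with 95% counting intervals, at day 3 and at day 7. Most day 3 points lie to the right of 0 (30 of 40) and most day 7 points to the left (28 of 40), and few pass the dotted 1.5-fold lines.

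Set side by side, 21 of the 40 members (52.5%) were above the all-gene median at day 3 and below it at day 7, against 19.8% of the 7008 genes. The relative ratio was higher at day 3 than at day 7 for 34 members (85.0%) against 48.2% of all genes, and the median difference was 0.21 for members and -0.01 for all genes. The 2 days share no library. The difference between them was not tested, because each value rests on 1 library per group.

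Most roles held members on both sides of the all-gene median. Among the box C/D proteins, NOP56 was at 0.36 at day 3 and -0.03 at day 7 (64.2, 100.4, 74.3 and 69.4 CPM) and NOP58 at 0.35 and -0.29, while FBL, the third core protein of the same particle, was at -0.33 and 0.00. The H/ACA proteins were split in direction at day 3. NOP10 (0.13) and GAR1 (0.16) were above the all-gene median, and the pseudouridine synthase DKC1 (-0.15) and NHP2 below it. Of the 11 small subunit factors 10 were above at day 3 and 2 at day 7, with medians of 0.12 and -0.13. Of the 15 large subunit factors 11 were above at day 3 and 5 at day 7, with medians of 0.16 and -0.14. Among the latter, PA2G4, a protein that binds ribosomes and is abundant in the nucleolus, had 140, 217, 143 and 141 CPM and ratios of 0.35 (0.30 to 0.40) and 0.04 (-0.02 to 0.10), with shAPC day 3 standing apart. RUVBL1, an ATPase that helps to assemble snoRNPs, had 21.4, 35.1, 22.4 and 24.1 CPM with ratios of 0.41 and 0.16, and its partner RUVBL2 had 38.0, 49.96, 36.5 and 31.1 CPM with ratios of 0.11 and -0.16.

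The members were then compared over time within each shRNA. In shScr the median relative log2 ratio of day 7 over day 3 was -0.01, with 19 members above the all-gene median, 1 member (NOC3L, 0.71) higher by at least 1.5-fold against 2.13% of all genes and 1 (NOP2, -0.77) lower against 3.7%. Intervals lay wholly above for 12 members (32.5% of all genes) and wholly below for 13 (32.3%), and none reached 2-fold (0.257% of all genes higher and 0.685% lower). In shAPC the median was -0.30, with 5 members above, none higher by at least 1.5-fold against 5.31% of all genes and 6 lower against 6.75%. The 6 were NOP2 (-0.85), DNTTIP2 (-0.76), GNL2 (-0.69), RRP1 (-0.66), UTP4 (-0.65) and DDX21 (-0.60), and none reached 2-fold (1.95% of all genes lower and 0.471% higher). The interval lay wholly below the all-gene median for 31 members against 35.9% of all genes, and wholly above for 4 against 33.6%. The members above the all-gene median of -0.31 in shAPC were NPM1 (0.48), FBL (0.38), NHP2 (0.27), RRS1 (0.24) and NOB1 (0.10), of which NPM1 and FBL also had more CPM at day 7 than at day 3. These time ratios share their libraries with the shAPC/shScr ratios and are no separate support for them. When CPM were averaged over cells the median in shAPC was -0.14.

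MYC lay close to the all-gene median at day 3. It had 53.0 CPM (50.8 to 55.4), 67.2 CPM (64.6 to 70.0), 54.5 CPM (51.9 to 57.1) and 46.1 CPM (43.7 to 48.7), so its relative log2 ratio was 0.06 at day 3 (-0.02 to 0.15) and -0.17 at day 7 (-0.28 to -0.07). At day 3 the MYC interval held the all-gene median, and the plain ratio of 0.34 became -0.04 with TMM factors. MYC was at 0.06 beside the members' median of 0.13 at day 3 and at -0.17 beside -0.13 at day 7. When CPM were averaged over cells, MYC was at -0.12 at day 3 and the members' median at 0.06, on opposite sides. Of the 31 measured MYC targets outside the nucleolus, 13 were above the all-gene median at day 3 and 12 at day 7, with medians of -0.05 and -0.11, and 6 factors of the MYC network had medians of -0.07 and 0.16. The most abundant of the targets were the glycolytic enzyme LDHA (0.01 and 0.07), the spermidine synthase SRM (-0.24 and 0.03) and the chaperonin HSPE1 (-0.07 and -0.15).

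Within a library, cells with and without a MYC UMI held similar shares of member UMIs. After each cell was thinned to 2000 UMIs, the mean share in cells with at least 1 MYC UMI was 0.339%, 0.402%, 0.364% and 0.342%, and in cells with none 0.378%, 0.418%, 0.347% and 0.339%. The order went one way at day 3 and the other at day 7, with 85 to 137 cells per library holding a MYC UMI. At this depth 8.92% to 12.6% of cells held a MYC UMI, so most cells with none may still express it, and thinning left out 115 to 1402 cells per library under 2000 UMIs. Thinned to 5000 UMIs, the shares were 0.346%, 0.395%, 0.357% and 0.322% with a MYC UMI and 0.342%, 0.399%, 0.324% and 0.324% without. The order was then reversed in shScr day 3 and in shAPC day 7, so the split by day did not hold. Cells of 1 library are no replicates, and these are descriptions.

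The shAPC day 3 library also had the highest mean share over thinned cells. Thinned to 2000 UMIs, the mean member share was 0.374%, 0.416%, 0.349% and 0.339%, and the median cell held a UMI of 4, 5, 4 and 4 of the 40 members. The median share at that depth was 0.35%, 0.35%, 0.3% and 0.3%, the same in both day 3 libraries. Thinned to 5000 UMIs it was 0.32%, 0.36%, 0.3% and 0.3%. NPM1 was found in 86.1%, 86.0%, 84.2% and 87.9% of thinned cells and NHP2 in 51.0%, 51.6%, 54.6% and 49.6%. DNTTIP2 was found in 2.45%, 7.73%, 5.01% and 3.04% of thinned cells, and in 36.9%, 55.3%, 15.9% and 23.6% of unthinned cells, where depth differs most. No cell type that lacks these genes is present in a single line, so no background share can be set beside these.

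Other genes of the pathway, 141 in a list by function of which 118 reached the level minimum, lay on the members' side at day 3. Their median relative log2 ratio was 0.18, with 89 of 118 above the all-gene median, 10 higher by at least 1.5-fold and 1 lower. At day 7 it was -0.05, with 49 above, 2 higher and 5 lower by 1.5-fold. The highest at day 3 were the small subunit factor UTP3 (0.97 and 0.09 at day 7) and TAF1D (0.93 and 0.11), a subunit of the polymerase I selectivity factor, and the lowest was NOP53 (-0.81 and 0.10), which acts on the large subunit. At day 7 the highest was RSL24D1 (0.14 at day 3 and 0.65), a large subunit factor, and the lowest was EXOSC8 (0.69 and -0.73), a subunit of the RNA exosome. TCOF1, the nucleolar protein treacle that assists polymerase I, was above at both days (0.46 and 0.54). Among 13 polymerase I genes 10 were above at day 3 and 9 at day 7, with medians of 0.12 and 0.14, so this role did not turn below the all-gene median at day 7.

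Genes of the cytosolic ribosomal proteins, the cargo of the pathway, lay opposite to its assembly factors. None of 79 was above the all-gene median at day 3, where the median was -0.50 and 21 were lower by at least 1.5-fold, and 71 were above at day 7 with a median of 0.11. RPL41 was at -0.33 and 0.26, RPS18 at -0.40 and 0.15 and RPS2 at -0.51 and 0.11. NPM1, at -0.29 and 0.25, had the same signs. Since ribosomal proteins take 30.1% to 37.5% of a library, their ratios and those of all other genes are tied through the total.

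**Figure D3:**
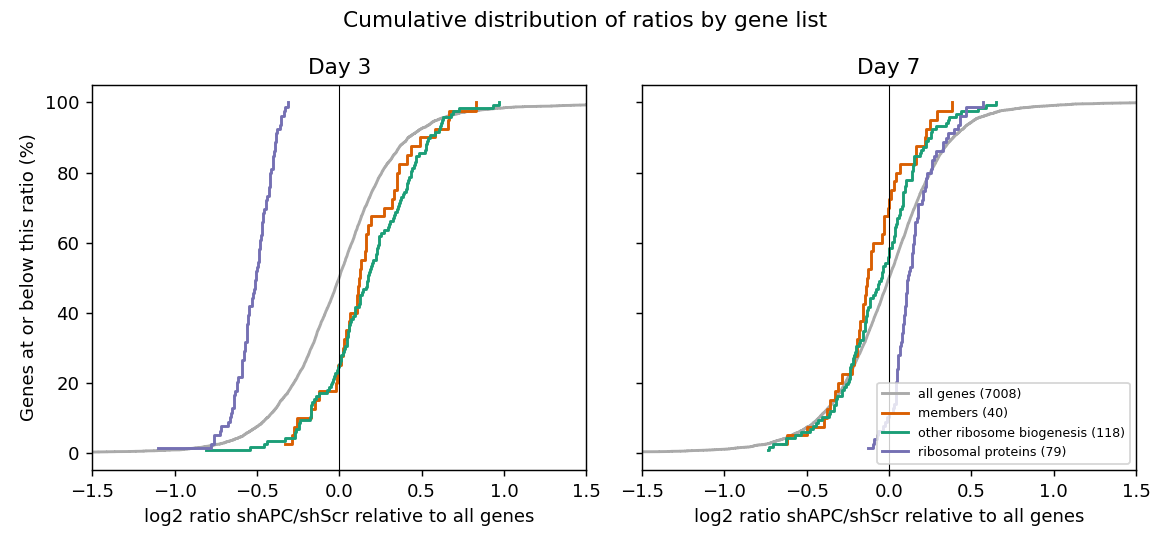
Share of genes at or below a given relative log2 ratio of shAPC over shScr (vertical axis, percent) against that ratio (horizontal axis) at day 3 and day 7, for all 7008 genes, the 40 members, 118 other ribosome biogenesis genes and 79 ribosomal protein genes. At day 3 the members and the other biogenesis genes lie right of all genes and the ribosomal proteins left, with medians of 0.13, 0.18 and -0.50, and at day 7 the members lie left.

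Members with the E-box hexamer had the same signs as those without in the shAPC/shScr ratios. The 13 with it had a median of 0.17 at day 3 and -0.20 at day 7, with 10 and 2 above the all-gene median. The 22 without it had 0.11 and -0.08, with 15 and 8 above. From day 3 to day 7 in shAPC the medians were -0.47 and -0.19, and in shScr they were 0.04 and -0.01, of opposite sign. These values describe 13 and 22 genes whose ratios share the same libraries.

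Members took a larger share of UMIs in cells called S or G2M. Cells were called G1, S or G2M from S and G2M gene lists that hold no member, and no other marker of cycling was measured. In G1, S and G2M cells the members gave 0.308%, 0.412% and 0.413% of UMIs in shScr day 3, and 0.365%, 0.417% and 0.476% in shAPC day 3. At day 7 they gave 0.301%, 0.386% and 0.411% in shScr and 0.309%, 0.381% and 0.379% in shAPC. G1 cells thus had the lowest share in all 4 libraries, and the shAPC day 3 library had the highest share in each phase, in S within the counting error of shScr day 3. More CPM in G2M than in G1 cells were found for 37, 38, 38 and 36 members, against 76.9%, 58.4%, 65.1% and 69.3% of all genes. More in S than in G1 cells were found for 39, 30, 38 and 38 members, against 68.7%, 50.2%, 66.3% and 70.9% of all genes.

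The direction by phase was then compared between libraries. In all 4 libraries, 35 of 40 members were higher in G2M than in G1 cells. The share of all genes higher in all 4 was not counted, and in single libraries it was 58.4% to 76.9%. The median log2 ratio of G2M over G1 was 0.77, 0.38, 0.69 and 0.64 for members. For all genes it was 0.31, 0.08, 0.17 and 0.22, which is not taken off in the values that follow. MRTO4 had log2 ratios of G2M over G1 of 1.39, 1.09, 1.09 and 1.20, NOP56 of 1.21, 0.85, 0.94 and 1.05, and NCL of 0.92, 0.90, 1.08 and 0.80. NOB1 was the sole member lower in all 4, at -0.36, -0.16, -0.24 and -0.56. NPM1 was mixed in sign, at -0.13, 0.08, -0.01 and -0.33. G2M cells made up 17.1%, 17.1%, 24.6% and 12.7% of kept cells, and the median depth of G2M cells ran from 988 UMIs in shScr day 7 to 41059 in shAPC day 3. In cells of at least 2000 genes the G2M shares were 0.409%, 0.475%, 0.403% and 0.372%, and the G1 shares 0.304%, 0.361%, 0.295% and 0.303%.

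**Figure D4:**
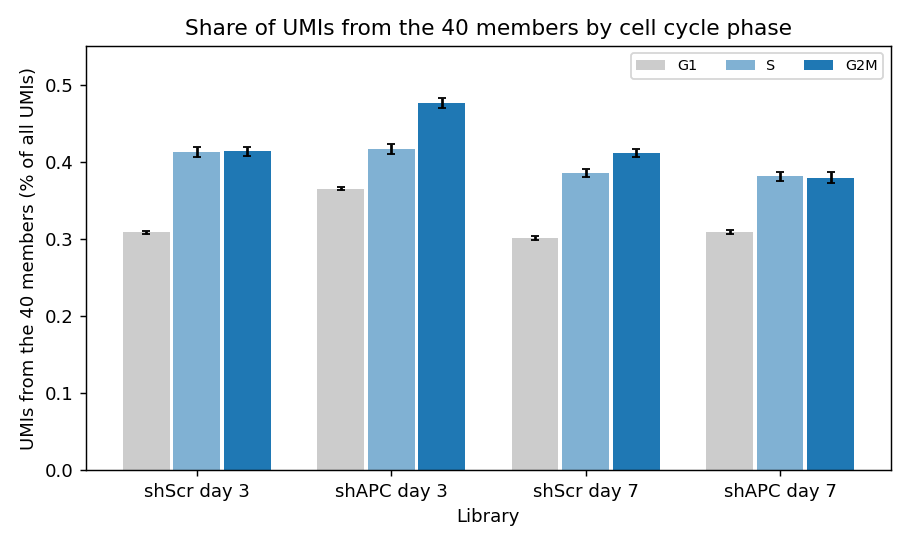
Share of UMIs from the 40 members (vertical axis, percent of all UMIs) in cells called G1, S and G2M of each library (horizontal axis), with 95% binomial counting intervals. G1 bars, from 0.301% to 0.365%, are the lowest of each library, and the G2M bar of shAPC day 3 is the highest at 0.476%.

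The mix of phases moved with the day 7 comparison. G2M genes had a median relative ratio of -0.62 in shAPC against shScr at day 7, with none of 22 above the all-gene median, and of 0.06 at day 3, and their summed CPM was 680, 828, 883 and 525 for 26 genes. In cells called G1 alone the members' median was 0.17 at day 3 and -0.08 at day 7, with no member lower by 1.5-fold at day 7. NOC3L was then at -0.55 and EBNA1BP2 at -0.37. G1 calls do not make cells equal, and how much of the day 7 ratios goes with the phase mix beyond this was not tested.

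The summed level of the members, of which NPM1 is the largest piece, differed from the typical member. The relative log2 ratio of summed member CPM was -0.05 at day 3 and 0.02 at day 7, against gene medians of 0.13 and -0.13. Without NPM1 and NCL the summed ratios were 0.07 and -0.13. The members lie on 17 chromosomes. UTP4 and PPAN share stretches on the same strand with SNTB2 and P2RY11, so their counts are uncertain, and PPAN had 16.3, 19.8, 16.7 and 13.6 CPM against 64 to 119 P2RY11 UMIs per library.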

How the data were processed

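The authors aligned reads to GRCh38 with Cell Ranger, which uses STAR, and deposited UMI counts per gene and barcode for 4 libraries. Per the file headers, Cell Ranger was 3.0.2 in the 2 shScr matrices but 3.0.0 in the 2 shAPC matrices, so software version and shRNA cannot be told apart. The kit is v2 in the labels and V3 in the methods, and the virus is likewise named in 2 ways. The annotation release was not given in the sources used here, and gene positions are from GENCODE 44.

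Barcodes were kept from 200 genes and 500 UMIs upward if the 13 mitochondrial genes gave less than 5% of their UMIs, 1116 of 1471, 788 of 1047, 2600 of 3652 and 1478 of 3035. The count of cells is not the study's, whose ComBat correction and imputation were not applied. Doublets were not removed, and leaving out the 5% of cells with the most UMIs served as an alternative. UMIs were summed per library and scaled to CPM by total UMIs. CPM have exact Poisson 95% intervals, ratios exact conditional binomial (Clopper-Pearson) intervals, shares exact binomial ones. TMM factors came from edgeR 4.0.16, size factors from DESeq2 1.42.0, phases from scanpy 1.11.5. Scripts were tested on simulated data. Kept barcodes that occur in both libraries of a pair numbered 19 for the day 3 libraries, 7 for the shScr libraries, 4 for the day 7 libraries and 1 to 3 for the other pairs.

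The members and gene lists were chosen with earlier results of these data known. All 40 members and MYC could be named. All 4 values could be given for the 5 most abundant, the 5 highest and 5 lowest at each day and the 4 candidate regulators of the study. Of other lists, the 3 most abundant genes and the extremes at each day could be named. NOP2 and POLR1B were given all values, UTP4, UTP15 and UTP20 were named for their low level, and P2RY11 and SNTB2 for overlap, all after their values were seen. NOP56 and PPAN were also given all 4 values outside these choices. Every listed gene was matched, DIEXF as UTP25. Promoter sequences are from RefSeq (GRCh38.p14), and protein sequences were not analysed here.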

Additional observations from a re-analysis of the deposited data

Results flagged for a closer look

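The members' median relative log2 ratio of shAPC over shScr lay above that of all genes at day 3 (0.1252) and below it at day 7 (-0.1306). Of the members themselves, 4 were at least 0.3 above at day 3 and at least 0.3 below at day 7. RRP9 was at 0.66 and -0.3757, NOC3L at 0.4348 and -0.643, GNL2 at 0.5841 and -0.394, and EBNA1BP2 at 0.3217 and -0.6183. They were marked because the single library pair of each day moved in opposite directions, and the difference between the days was not tested. With CPM averaged over cells, RRP9 was at 0.14 at day 7 and EBNA1BP2 at -0.02 at day 3, and GNL2 at 0.04 at day 3, so that of the 4 genes NOC3L alone kept its values at least 0.3 above at day 3 and below at day 7 under that measure.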

How the results depend on the processing

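Each group holds 1 library, so no library could be left out. No paired analysis was possible because the groups compared share only 1 replicate number. Over 14 alternatives the members' median relative log2 ratio kept its sign at day 3 (0.06 to 0.28), at day 7 (-0.19 to -0.07) and over time in shAPC (-0.52 to -0.14), while over time in shScr it lay between -0.10 and 0.03. The day 3 median was 0.25 with a minimum of 50 CPM and 0.28 with none, and the shAPC time median was -0.52 with no minimum and -0.14 from CPM averaged over cells. Raising or dropping the minimum moves the all-gene median and not the members' own ratios, and the cause of the last was not tested. Directions turned for single genes whose interval excluded 0, and MYC at day 3, whose interval held 0, was -0.12 from CPM averaged over cells. DDX21 at day 3 was 0.00866 with the minimum of 50 CPM and 0.0338 with none. From CPM averaged over cells, day 3 values were -0.0249 for EBNA1BP2 and -0.00694 for PES1, day 7 values were -0.117 for RUVBL1, -0.418 for PES1, 0.135 for RRP9 and -0.355 for RRS1, and shAPC time values were 0.00358 for DDX10 and -0.0143 for RRS1. In G1 cells, day 7 values were 0.000183 for DNTTIP2 and 0.0227 for RUVBL2. The count past 1.5-fold at day 3 (3 higher) was 5 with a minimum of 50 CPM, 6 with none, 1 with a pseudocount of 5 CPM, 1 without the 5% of cells with the most UMIs, 1 from CPM averaged over cells and 0 in cells with no ATF3 UMI. The day 7 count (2 lower) was 0 with a pseudocount of 5 CPM, with the minimum of 50 CPM or in G1 cells, and 4 from CPM averaged over cells, which also gave 2 higher. Leaving out barcodes found in more than 1 library was chosen after seeing the data and gave 0.13 and -0.13. Besides the 12 turned values, 1050 single-gene values moved by less than their counting error and 226 by more. Of the 1050, 27 fell on the other side of the all-gene median, and of the 226, 16 did.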

Other observations

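A small number of barcodes drew at least 2% of their UMIs from the 40 members. There were 16 in shScr day 3, 15 in shAPC day 3, 7 in shScr day 7 and 12 in shAPC day 7, and 11, 12, 6 and 12 of them held under 2000 UMIs. NPM1 made up 85.2%, 82.1%, 78.8% and 82.9% of the member UMIs of these barcodes, against 35.5%, 30.1%, 34.3% and 40.2% of all member UMIs in the same libraries. The highest single share was 8.43%, in a shScr day 3 barcode of 688 UMIs.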
